A study of Mus musculus with 9 samples.

Results

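The 10 integrin subunit genes Itgam, Itgal, Itgb2, Itgav, Itgb5, Itga6, Itgb1, Itga4, Itga5 and Itga9 were followed in sorted mouse microglia. They were taken by gene symbol from the count tables, which hold 23238 symbols, and they are 10 of the 26 integrin subunit genes looked for. Itgam encodes CD11b, the surface protein on which the cells were sorted. Brain cells of wild-type adult female mice were sorted on day 1 as CD45+CD11b+P2ry12+ cells, and RNA was read in 9 libraries, 3 in each of 3 groups, each library from a pool of 3 mice. Normal mice received no injection. NMO mice received patient IgG against aquaporin-4 with human complement unilaterally in the striatum, a model of neuromyelitis optica, an autoimmune disease in which antibodies damage astrocytes. The paper describes isolation of immune cells from the brains, with no dissection of the lesion before the sort, so the sorted cells need not come from the lesion. NMO+Clodronate mice received the same injection after intraperitoneal clodronate liposomes, which kill phagocytes of the blood and periphery. No library of mice given control IgG or empty liposomes was analysed here, so that the injection, the antibody and the complement cannot be told apart, nor clodronate from the liposomes that carry it.

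Integrins are receptors made of an alpha and a beta chain that bind matrix proteins, complement fragments and adhesion molecules on other cells, and that pass signals to the cytoskeleton through talin and kindlin. The beta-2 integrins belong to leukocytes: CD11b with Itgb2 forms complement receptor CR3, which microglia use in phagocytosis, and CD11a, the product of Itgal, with Itgb2 forms LFA-1, which leukocytes use to adhere to vessels. Itgav with Itgb5 binds vitronectin and takes part in the uptake of apoptotic cells, and Itgb5 is a known gene of resting microglia. Itgb1 pairs with many alpha chains, among them those of Itga4, Itga5, Itga6 and Itga9, which bind VCAM-1, fibronectin, laminin and tenascin.

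The promoters of Itgam and Itgb5 are shown because their products stand for the CR3 and the resting-microglia integrins compared here. Of the 10 genes, 7 matched the RefSeq promoter sequences on GRCm38.p6, which run from 250 bases before the transcription start to 50 after it. Capitals mark GAGGAA or its reverse complement TTCCTC, a core that PU.1, the macrophage ETS factor, can bind. The Itgam sequence is chr7:128062390-128062689 and that of Itgb5 is chr16:33829415-33829714, both on the plus strand and printed 5′ to 3′.
Itgam: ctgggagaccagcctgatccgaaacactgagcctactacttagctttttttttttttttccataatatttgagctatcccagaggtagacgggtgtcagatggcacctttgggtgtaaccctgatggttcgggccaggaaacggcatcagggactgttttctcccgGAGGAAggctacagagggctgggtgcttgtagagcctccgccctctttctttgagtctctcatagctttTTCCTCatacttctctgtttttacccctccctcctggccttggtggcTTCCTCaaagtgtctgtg
Itgb5: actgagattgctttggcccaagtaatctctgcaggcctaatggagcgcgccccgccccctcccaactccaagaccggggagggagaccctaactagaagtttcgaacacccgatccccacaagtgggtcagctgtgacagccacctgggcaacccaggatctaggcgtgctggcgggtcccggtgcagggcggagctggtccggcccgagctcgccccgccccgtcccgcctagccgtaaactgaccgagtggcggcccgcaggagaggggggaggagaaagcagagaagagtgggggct
Itgam held 3 matches, which begin 84 and 15 bases before the start and at transcript base 33. Itgav held 2, Itgb1 and Itga5 held 1 each, and Itgb5 and Itga4 held 0. The Itga9 window also held 0, but it lies within the gene as GENCODE M21 places it, at a start inside the gene and not at its first base. The search covered both strands, and 28.3% of all 32851 promoters in the table held at least 1 match. These are matches of letters only.

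Total counts ran from 5788234 to 7837219 per library, and the ribosomal RNA entry Rn45s took 15.98% to 31.0% of them. Levels are given as CPM, counts scaled to the TMM-adjusted library size. Because these libraries read the 3′ end of each transcript, CPM does not depend on transcript length, but priming differs between genes, so between genes it is read only as the depth behind a value and not as an order of transcript levels. NMO replicate 2 held 0 counts of 12 genes that had at least 20 CPM in each of the other 8 libraries, and in each of those 8 libraries 0 such genes were at 0. The label was checked on 15 microglia markers, which all had counts and summed to 44879 to 51184 CPM in Normal, 40322 to 44987 in NMO and 29463 to 40398 in NMO+Clodronate. Of the 15 markers, 0 were called higher in any comparison, and 1 was called lower in NMO against Normal (Siglech), 4 in NMO+Clodronate against NMO (Gpr34, P2ry12, Siglech and Olfml3) and 9 in NMO+Clodronate against Normal, beside 0.496%, 1.59% and 9.23% of all genes called. Across 17 alternatives the Siglech call in NMO against Normal was made in 11 (adjusted p of up to 0.150, and lost without any of the 3 Normal libraries, NMO replicate 1 or NMO replicate 3), and the Olfml3 call against NMO in 7 (up to 0.234), whereas Gpr34, P2ry12 and Siglech were called against NMO in all 17. Of the 9 against Normal, P2ry12, Gpr34, Siglech, Olfml3 and Trem2 were called in all 17, Sall1 in 15, Fcrls in 14, Aif1 in 13 and Cx3cr1 in 10. In libraries of sorted cells, fewer cells of a type and less RNA per cell cannot be told apart.

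All 10 subunits were tested, since each had at least 1.45 CPM, the cutoff of the filter, in 3 or more libraries. None was called in any of the 3 comparisons at an adjusted p under 0.05 by the edgeR quasi-likelihood test. Over all 12292 genes tested, 0.496% were called in NMO against Normal, 1.59% in NMO+Clodronate against NMO and 9.23% in NMO+Clodronate against Normal. At an unadjusted p under 0.05 the numbers of subunits were 0, 1 and 3, beside 9.51%, 12.4% and 22.3% of all genes. DESeq2 and limma-voom also called 0 subunits in each comparison, and 0 were called without NMO replicate 2. The summed level of the 10 subunits was 2600 to 2736 CPM in Normal, 2345 to 2683 in NMO and 2381 to 2562 in NMO+Clodronate. The 7 subunits other than Itgal, Itga4 and Itga5 had at least 48.4 CPM in every library, and none of their log2 fold changes was larger in size than 0.44. Their 95% intervals lay within 1 log2 unit of 0, whereas those of Itgal, Itga4 and Itga5, with fewer counts behind them (at most 20.1 CPM in any library), span several log2 units.

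**Figure D1:**
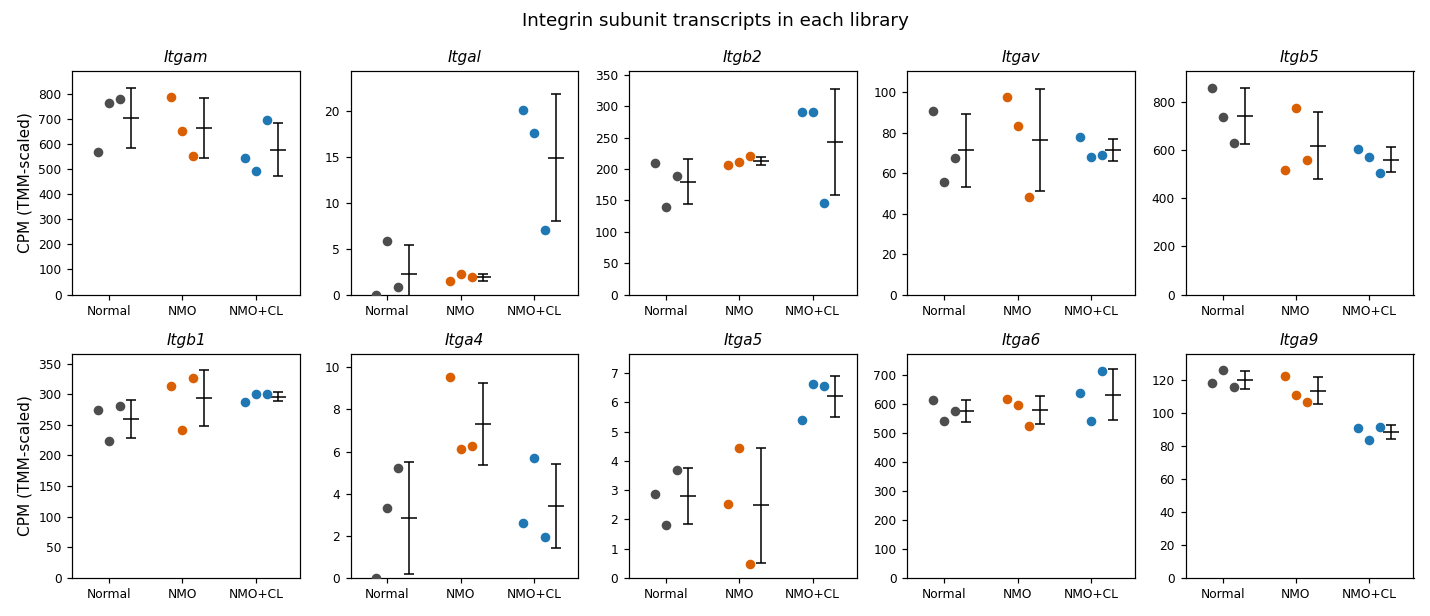
Level of each integrin subunit transcript in CPM (y axis, from 0, its own scale in each panel) in the 3 libraries of Normal, NMO and NMO+Clodronate (NMO+CL), with points for libraries and a bar for the mean ± SD. Itgam ran between 492 and 787 CPM with overlapping groups, and Itgal was above 7 CPM in the 3 NMO+Clodronate libraries and below 6 CPM in the other 6.

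Itgam transcripts were found in all 9 libraries. Itgam (ENSMUSG00000030786.18, GRCm38 chromosome 7, 128062640 to 128118491, plus strand, 30 exons) was at 567, 765 and 781 CPM in the Normal libraries, at 787, 651 and 551 in NMO and at 542, 492 and 697 in NMO+Clodronate. The ranges of the 3 groups overlapped, and the highest library exceeded the lowest 1.60-fold. The log2 fold change was -0.09 in NMO against Normal (95% interval -0.50 to 0.33, adjusted p = 0.970) and -0.20 in NMO+Clodronate against NMO (-0.61 to 0.21, 0.769). In NMO+Clodronate against Normal it was -0.29 (-0.70 to 0.13, 0.453), so that a fall to 0.615 of the Normal level and a rise to 1.09 of it both lie within the interval. The sort kept only cells with CD11b on the surface, so Itgam is itself a gene by which the cells were chosen.

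P2ry12, the purinergic receptor that was also used to sort these cells, is set beside Itgam as the other gate gene with a difference. It was at 2608, 2055 and 2665 CPM in Normal, at 1756, 1558 and 1629.5 in NMO and at 449, 266 and 344 in NMO+Clodronate, with no overlap between the groups. In NMO against Normal its log2 fold change was -0.57 (adjusted p = 0.255). It fell by 2.22 on the log2 scale in NMO+Clodronate against NMO (adjusted p = 1.73e-05) and by 2.79 against Normal (adjusted p = 4.62e-07). Within a library, the log2 ratio of P2ry12 to Itgam counts was 1.80 ± 0.39 in Normal, 1.33 ± 0.21 in NMO and -0.73 ± 0.40 in NMO+Clodronate (mean ± SD, n = 3). It was lower in every NMO+Clodronate library than in every other library, with log2 differences of -2.05 against NMO and -2.53 against Normal. For each the exact two-sided permutation p was 0.1, and 3 libraries against 3 can give none lower. This ratio was chosen after the values were seen. Ptprc, which encodes CD45, was at 368 to 465 CPM in Normal, 413 to 423 in NMO and 412 to 631 in NMO+Clodronate, and was not called in any comparison.

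Itgb2, the beta chain of CR3 and LFA-1 (chromosome 10, 77530252 to 77565708, plus strand), was at 209, 139.7 and 189 CPM in Normal, at 206, 212 and 220.0 in NMO and at 291, 291 and 146 in NMO+Clodronate. The NMO+Clodronate libraries were split, as replicates 1 and 2 were the highest of all 9, and replicate 3 was lower than each NMO library. The log2 fold change in NMO+Clodronate against Normal was 0.44 (95% interval -0.08 to 0.95, adjusted p = 0.323), and without NMO+Clodronate replicate 3 it was 0.70 with an adjusted p of 0.0436. In NMO against Normal it was 0.24 (-0.27 to 0.76, 0.880).

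Itgal had the largest fitted differences among the 10 subunits in the comparisons with NMO+Clodronate. Itgal (chromosome 7, 127296260 to 127335138, plus strand) had 0, 39 and 5 counts in Normal, 12, 19 and 12 in NMO and 138, 109 and 44 in NMO+Clodronate. These are 0, 5.87 and 0.841 CPM in Normal, where the count of 0 allows up to 0.477 CPM, then 1.51, 2.27 and 1.92 CPM in NMO and 20.1, 17.7 and 7.05 CPM in NMO+Clodronate. Each NMO+Clodronate library was above all 6 other libraries, whereas Normal and NMO overlapped. The log2 fold change was 2.96 in NMO+Clodronate against NMO (95% interval 0.70 to 5.22, unadjusted p = 0.0133, adjusted p = 0.218 by edgeR). Against Normal it was 2.72 (0.48 to 4.96, adjusted p = 0.128), and this value rested on Normal replicate 2: without that library it was 5.11 with an adjusted p of 0.0238. With all genes that had a count in the fit, the adjusted p was 0.0431.

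Transcripts of other leukocytes were summed in the same libraries, since LFA-1 is carried by most white blood cells. Of 15 neutrophil markers, which summed to 101 to 603 CPM in Normal, 170 to 502 in NMO and 319.5 to 1448 in NMO+Clodronate, 12 were tested and 0 called, and Elane, Stfa1 and Stfa2 were at 0 in 6 or more libraries. Of the 12 tested, 11 had a positive log2 fold change in NMO+Clodronate against NMO (median 0.86, beside -0.0050 over all genes) and 11 against Normal (median 1.02, beside -0.012). The monocyte sum over 12 markers was 40.8 to 75.4 CPM in Normal, 41.2 to 105 in NMO and 58.9 to 131 in NMO+Clodronate, and of 11 monocyte markers tested 6 were positive against NMO and 7 against Normal (medians 0.56 and 1.27), with 0 called. The 11 border macrophage markers summed to 160 to 308, 10.9 to 199 and 224 to 412 CPM in the same order, with Cd163, Clec10a, Cd209f, Colec12 and Folr2 at 0 in 6 or more libraries. Of 6 border macrophage markers tested 5 were positive against NMO and 3 against Normal (medians 0.98 and 0.020), with 0 called. Lymphocyte and NK markers summed to 17.8 to 21.9, 9.77 to 21.9 and 11.1 to 22.4 CPM over the 14 of 16 found in the tables, with Cd3e at 0 in all 9 libraries. Of 2 lymphocyte and NK markers tested 0 were positive against NMO or Normal (medians -3.37 and -3.72), with 0 called. The cells were sorted as P2ry12+, and how many of these leukocytes stayed in was not measured here. The part of these leukocytes in the level of Itgal was not tested.

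Among the alpha-v and beta-5 pair, which serves the uptake of dying cells, Itgb5 (chromosome 16, 33829665 to 33949338, plus strand) was at 858, 738 and 628 CPM in Normal, at 518, 776 and 559 in NMO and at 605, 573 and 503 in NMO+Clodronate. Each NMO+Clodronate library was below each Normal library, and NMO overlapped both. The log2 fold change in NMO+Clodronate against Normal was -0.40 (95% interval -0.80 to -0.0018, adjusted p = 0.222), and in NMO against Normal it was -0.26 (-0.66 to 0.14, 0.756). Itgav (chromosome 2, 83724397 to 83806916, plus strand) ran from 48.4 to 97.4 CPM, and both extremes were NMO libraries. Its log2 fold changes were 0.10, -0.09 and 0.01 in NMO against Normal, NMO+Clodronate against NMO and NMO+Clodronate against Normal, with adjusted p values of 0.975, 0.950 and 0.994.

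Of the beta-1 family, the laminin receptor chain Itga6 and Itgb1 itself varied least between libraries in relation to their level. Itga6 (chromosome 2, 71745616 to 71858416, plus strand) ran from 525 to 716 CPM, and its groups overlapped. Its log2 fold changes in the same 3 comparisons were 0.0074, 0.13 and 0.13, the last with a 95% interval of -0.22 to 0.49 (adjusted p = 0.746). Itgb1 (chromosome 8, 128685654 to 128733200, plus strand) was at 275, 224 and 280.0 CPM in Normal, at 313, 242 and 326 in NMO and at 287, 299.7 and 300.4 in NMO+Clodronate. The NMO+Clodronate libraries of Itgb1 lay above those of Normal by a narrow margin, and its log2 fold change was 0.19 (-0.20 to 0.57, adjusted p = 0.652).

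Itga9, a receptor chain for tenascin and osteopontin, had little spread within groups. Itga9 (chromosome 9, 118606690 to 118901003, plus strand) was at 119, 126 and 116 CPM in Normal, at 123, 111 and 107 in NMO and at 90.8, 83.8 and 91.4 in NMO+Clodronate. Each NMO+Clodronate library was below all 6 others. The log2 fold change was -0.36 against NMO (95% interval -0.76 to 0.04, adjusted p = 0.472) and -0.44 against Normal (-0.84 to -0.04, adjusted p = 0.180), and neither passed the threshold. Near its 3′ end, 60 transcript bases resemble Mtmr12 at 90% identity or more, so that reads there may have been counted at both genes.

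The fibronectin receptor chain Itga5 and the VCAM-1 receptor chain Itga4 had few counts. Itga4 (chromosome 2, 79255426 to 79333123, plus strand) had 0, 22 and 31 counts in Normal, 76, 51 and 39 in NMO and 18, 35 and 12 in NMO+Clodronate, or up to 9.56 CPM. The NMO libraries were the 3 highest of the 9, with a log2 fold change of 1.36 against Normal (95% interval -1.04 to 3.76, adjusted p = 0.825), which was 0.77 without Normal replicate 1 and 2.11 without Normal replicate 3. Normal replicate 1 had 0 counts of both Itga4 and Itgal, and the last 500 transcript bases of Itga4 overlap Cerkl on the other strand. Itga5 (chromosome 15, 103344286 to 103366763, minus strand) had 18, 12 and 22 counts in Normal, 20, 37 and 3 in NMO and 37, 41 and 41 in NMO+Clodronate. At 5.40, 6.64 and 6.57 CPM the NMO+Clodronate libraries of Itga5 were above the other 6, which had at most 4.43, and the log2 fold change was 1.31 against NMO (-0.91 to 3.54, adjusted p = 0.683) and 1.15 against Normal (-1.07 to 3.37, 0.625). The value against NMO was 0.85 without NMO replicate 3 and 2.03 without NMO replicate 2.

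Groups that did not overlap were counted over the 10 subunits. In NMO against Normal this held for 1, Itga4, beside 17.4% of all genes tested. In NMO+Clodronate against NMO it held for 4, with Itgal and Itga5 higher and Itga4 and Itga9 lower, beside 17.1% of all genes. In NMO+Clodronate against Normal it held for 5, with Itgal, Itga5 and Itgb1 higher and Itga9 and Itgb5 lower, beside 28.7%. The median log2 fold changes of the 10 subunits were -0.037, -0.043 and 0.16 in the 3 comparisons, beside -0.0099, -0.0050 and -0.012 over all genes tested. The comparisons share libraries, and the counts are not independent of each other.

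**Figure D2:**
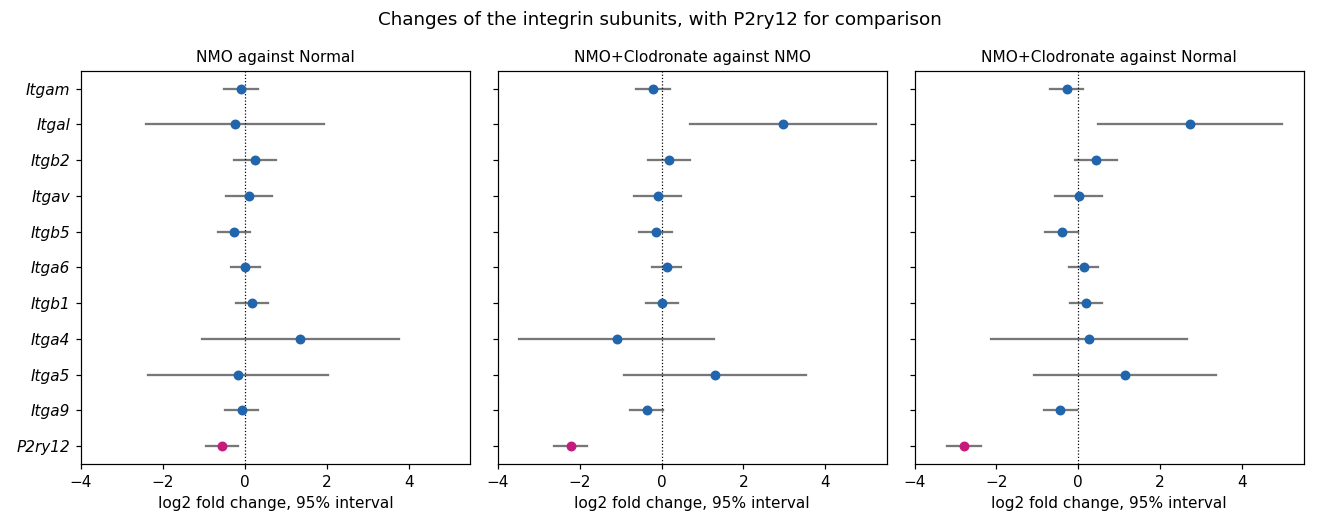
Log2 fold change of each integrin subunit (points) with its 95% interval (lines) from the edgeR fit in the 3 comparisons, and of P2ry12 for scale. The intervals of Itgal, Itga4 and Itga5 are wide, and those of the other 7 subunits are narrower and lie within 1 log2 unit of 0. P2ry12 lies at -2.22 and -2.79 in the comparisons with NMO+Clodronate.

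Since an integrin needs both chains, the log2 ratio of counts of each alpha chain to a beta partner was compared within libraries, in 21 comparisons over 7 pairs. The ratio of Itgam to Itgb2 was 1.98 ± 0.51 in Normal, 1.63 ± 0.30 in NMO and 1.30 ± 0.83 in NMO+Clodronate (mean ± SD, n = 3), with overlapping groups. That of Itgal to Itgb2 was -7.86 ± 3.41, -6.77 ± 0.27 and -4.08 ± 0.25 in the same order, and it was higher in each NMO+Clodronate library than in the other 6. The ratio of Itga9 to Itgb1 was -1.11 ± 0.24, -1.36 ± 0.24 and -1.74 ± 0.09, and lowest in the 3 NMO+Clodronate libraries. The ratio of Itga5 to Itgb1 was higher in NMO+Clodronate than in NMO by 1.72 and than in Normal by 0.99, without overlap. For these last 3 ratios the exact two-sided permutation p was 0.1 in NMO+Clodronate against each other group, the smallest possible, with 0.233 after adjustment over the 21. The same p was reached by Itgav to Itgb5, higher by 0.43 in NMO+Clodronate than in Normal, and by Itga4 to Itgb1, higher by 2.51 in NMO than in Normal and with a difference of -1.22 in NMO+Clodronate against NMO. Without single libraries the differences ran from 0.55 to 3.57 for Itga4 to Itgb1 in NMO against Normal, the lowest without Normal replicate 1, from 0.78 to 2.49 for Itga5 to Itgb1 against NMO, the lowest without NMO replicate 3, and from 2.04 to 5.44 for Itgal to Itgb2 against Normal, the lowest without Normal replicate 1. No ratio passed a threshold of 0.05, which 3 against 3 libraries cannot reach.

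**Figure D3:**
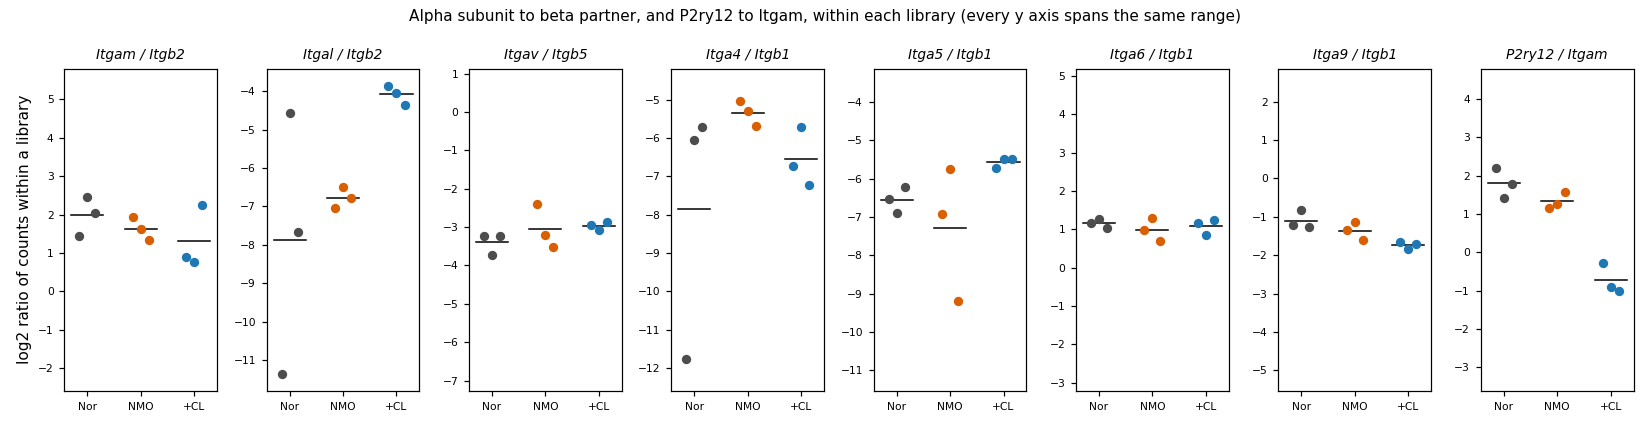
Log2 ratio of counts (y axis) of alpha chains to a beta partner, and of P2ry12 to Itgam, within each library of Normal (Nor), NMO and NMO+Clodronate (+CL), with lines at group means and an equal span of the y axis in every panel. The ratio of Itgal to Itgb2 is highest and that of P2ry12 to Itgam is lowest in the 3 NMO+Clodronate libraries.

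Libraries could also be compared by the genes whose levels followed Itgam. Over the 9 libraries, the highest Pearson correlations of log2 CPM with Itgam among the 8834 genes whose counts averaged 50 or more were those of Tollip (r = 0.945), Mgme1 (r = 0.932) and Ubqln2 (r = 0.929). The points share library depth and group, and the values are a description. Tollip ran from 12.6 CPM in NMO+Clodronate replicate 2, the library with the least Itgam, to 39.0 CPM in Normal replicate 3.

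Of the other 16 integrin subunits, 9 were tested and 0 were called in any comparison by edgeR. Itgb3, the beta chain of the vitronectin receptor, was at 62.6 to 78.2 CPM in Normal, 58.6 to 87.1 in NMO and 32.7 to 57.5 in NMO+Clodronate. It had log2 fold changes of -0.65 against NMO (adjusted p = 0.305) and -0.68 against Normal (adjusted p = 0.130), and its NMO+Clodronate libraries did not overlap the others. Against Normal it was called lower in 1 of 17 alternatives, without NMO+Clodronate replicate 3 (-0.93, adjusted p = 0.0474). Platelets carry much Itgb3, and 7 platelet markers summed to 42.6 to 59.9 CPM in Normal, 26.9 to 40.5 in NMO and 17.8 to 27.1 in NMO+Clodronate, with Gp6 at 0 in all 9 libraries and Itga2b and Ppbp at 0 in 6 or more. Their member Gp9, named here after its values were seen, was called lower in NMO+Clodronate against Normal (-2.31, adjusted p = 0.00298), and the sum of the other 6 was 19.3 to 23.3 CPM in Normal, 14.7 to 20.9 in NMO and 12.8 to 22.6 in NMO+Clodronate, with overlapping groups. The cells were sorted as CD11b+, and how many platelets stayed in was not measured here. The part of platelets in the level of Itgb3 was not tested. Itgax, which encodes CD11c, was at 5.90 to 11.9, 7.20 to 24.3 and 11.8 to 22.3 CPM with overlapping groups (adjusted p of 0.495 or more). Itga1, a collagen receptor chain, was listed at 0 in the 3 Normal libraries and in NMO replicates 1 and 2, at 4.48 CPM in NMO replicate 3, and at 1.30 to 3.20 CPM in NMO+Clodronate. It passed the filter through the few libraries in which it had counts, so no fold change or test is given for it. Itga2 had 0 counts in all 9 libraries, and Itga2b, Itga3, Itga7, Itga8, Itga10, Itga11, Itgad, Itgae, Itgb4, Itgb6, Itgb7 and Itgb8 had at most 8.29 CPM in any.

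Genes that link integrins to the cell interior were called in a few cases. Of 30 adaptors of activation and adhesion 28 were tested, and 1 was called higher and 0 lower in NMO against Normal (beside 0.496% of all genes tested), 0 in NMO+Clodronate against NMO (beside 1.59%), and 2 higher and 2 lower in NMO+Clodronate against Normal (beside 9.23%). The count of 0 against NMO depended on the setting: Lims1 was called lower in 6 and Flna higher in 4 of 17 alternatives, with up to 1 adaptor higher and 2 lower in any. Flna, the actin crosslinker filamin A, which binds beta tails in competition with talin, was at 69.6, 48.3 and 42.7 CPM in Normal, at 124, 128 and 109 in NMO and at 264, 228 and 168 in NMO+Clodronate. Its 3 groups did not overlap, and it rose by 1.17 on the log2 scale in NMO against Normal (adjusted p = 0.0320) and by 2.04 in NMO+Clodronate against Normal (adjusted p = 4.51e-05). The first call was made in 11 of 17 alternatives and was lost with adjusted p values of up to 0.186 without single libraries, namely any of Normal replicates 2 and 3, NMO replicates 1 and 2 and NMO+Clodronate replicate 2, and with only the 2 groups compared in the fit. The second was made in all 17.

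Tln1, the talin that switches beta chains on, rose from 502 to 538 CPM in Normal to 712 to 860 CPM in NMO+Clodronate (log2 fold change 0.58, adjusted p = 0.0392). Lims1, which encodes PINCH1, a partner of integrin-linked kinase, fell from 86.4 to 142 CPM to 37.5 to 60.3 CPM (-1.15, adjusted p = 0.00856), and Tns3, a tensin of adhesion sites, fell from 66.6 to 81.4 CPM to 29.2 to 43.3 CPM (-0.99, adjusted p = 0.0239). These calls were made in 10 of 17 alternatives for Tln1, in 16 for Lims1 and in 13 for Tns3. The largest adjusted p of each came from leaving out 1 library: 0.126 for Tln1 and 0.0587 for Lims1 without Normal replicate 1, and 0.118 for Tns3 without NMO+Clodronate replicate 2. Tln1 also lost its call without Normal replicates 2 and 3, NMO replicate 1 and NMO+Clodronate replicates 2 and 3, each left out alone, and Tns3 without any of the 3 Normal libraries.

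Of 26 genes of signalling next to integrins 25 were tested, and 0 were called in NMO against Normal or in NMO+Clodronate against NMO, while 3 of those counted were called lower in NMO+Clodronate against Normal, beside 9.23% of all genes called. Against NMO, Cd9 was called lower in 3 of 17 alternatives, namely all genes with a count, DESeq2 and limma-voom. Against Normal, 1 was called higher in 4 of 17 alternatives, and the number called lower went to 0 without Normal replicate 1 or 3 and to 1 without NMO+Clodronate replicate 1 and with library totals alone. Cd9, a tetraspanin, fell from 169 to 291 CPM to 46.0 to 129 CPM (-1.19, adjusted p = 0.0213). Cd47, the integrin-associated protein that signals against phagocytosis, fell from 99.2 to 235 CPM to 46.1 to 83.9 CPM (-1.39, adjusted p = 0.0385), and Cd82, another tetraspanin, from 19.2 to 29.0 CPM to 4.54 to 12.7 CPM (-1.59, adjusted p = 0.0499). Cd9 was called in 15 of 17 alternatives, Cd47 in 11 and Cd82 in 6, and their largest adjusted p values were 0.115, 0.212 and 0.185. Single libraries whose removal ended the call were Normal replicates 1 and 3 for Cd9, and Normal replicates 1 and 3 and NMO+Clodronate replicates 1 and 3 for Cd47. For Cd82 they were the 3 Normal libraries, NMO replicates 1 and 2 and NMO+Clodronate replicates 1 and 2. Near the 3′ end of Cd9, 109 transcript bases resemble the pseudogene Cd9-ps at 90% identity or more.

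Of 36 ligands and counter-receptors 22 were tested, with 0 called in the first 2 comparisons and 1 higher and 1 lower in NMO+Clodronate against Normal. These 2 are 9.09% of the 22, near the 9.23% of all genes called, and the count is no result about the ligands as a list. Fn1, fibronectin, the ligand of the Itga5 and Itga4 receptors, was at 5.58, 6.47 and 1.18 CPM in Normal, at 10.7, 7.18 and 3.04 in NMO and at 29.2, 27.2 and 16.3 in NMO+Clodronate, a rise of 2.45 on the log2 scale against Normal (adjusted p = 0.0218). Jam2, an adhesion molecule of endothelial junctions that binds integrins, was at 32.0, 25.6 and 52.2 CPM in Normal and at 13.6, 8.10 and 3.68 in NMO+Clodronate, a fall of 2.11 (adjusted p = 0.00975). Fn1 was called in 13 of 17 alternatives, and its largest adjusted p was 0.0876 (without Normal replicate 3), with the call also lost without Normal replicate 1 and without NMO+Clodronate replicate 1 or 2. Jam2 was called in 16, with 0.0784 without Normal replicate 3. Endothelial and mural markers summed to 82.6 to 106 CPM in Normal, 44.2 to 103 in NMO and 61.3 to 117 in NMO+Clodronate. Astrocyte and oligodendrocyte markers summed to 280 to 315, 201 to 204 and 120 to 196 CPM in the same order. Of these, Gfap, Aldh1l1, Mog and Mobp were at 0 in 6 or more libraries, and Slc1a3 alone was at 142 to 203 CPM in Normal. Of 8 astrocyte and oligodendrocyte markers tested 3 were called lower in NMO+Clodronate against Normal, beside 9.23% of all genes. They were called in 13 (Cnp) and 12 (Slc1a3) of 17 alternatives and in 11 of 16 (Slc1a2). The groups of Slc1a2 overlapped, at 19.1, 0 and 7.57 CPM in Normal and 0.146, 0 and 0 CPM in NMO+Clodronate. The cells were sorted as CD45+, and endothelial cells, astrocytes and oligodendrocytes lack CD45. How many of them stayed in was not measured here. Median log2 fold changes of marker lists in NMO+Clodronate against Normal were 1.02 (neutrophil), 1.27 (monocyte), 0.020 (border macrophage) and -0.24 (endothelial and mural). In each of these lists 0 markers were called. The part of any of these cells in the levels of Fn1 and Jam2 was not tested.

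**Figure D4:**
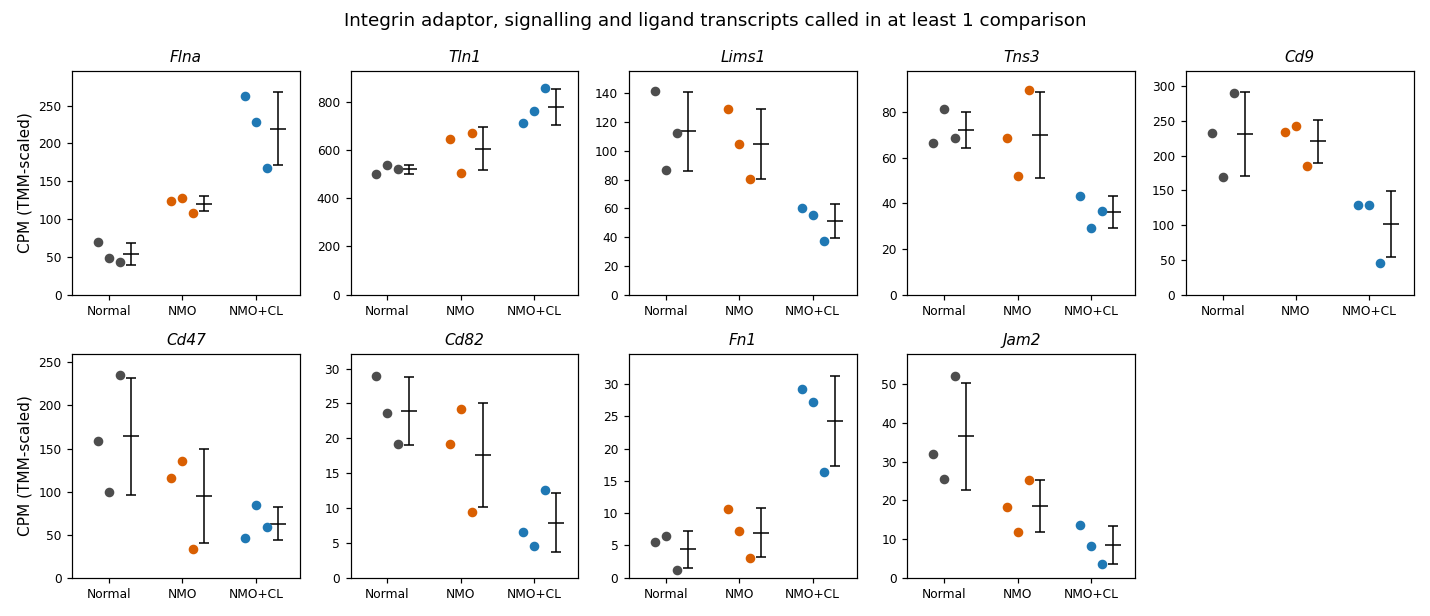
Level in CPM (y axis, from 0) of 9 adaptor, signalling and ligand genes called in at least 1 comparison, with points for the 3 libraries of each group and bars for the mean ± SD. Flna, Tln1 and Fn1 were higher and Lims1, Tns3, Cd9, Cd47, Cd82 and Jam2 lower in each NMO+Clodronate (NMO+CL) library than in any Normal library.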

How the data were processed

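QuantSeq 3′ libraries of sorted microglia were read as single 75-base reads. The deposited values are raw read counts per gene, which the authors made with Bowtie2 and Bedtools from unique and multiple alignments; mm10 is named in the submitters' processing notes, and versions, annotation and strand use are not given in the sources used here. The 23282 entries per library were summed to 23238 symbols. Counts were fitted with edgeR 4.0.16 (R 4.3.3): filterByExpr (at least 10 counts, and 15 in total), TMM scaling, a quasi-likelihood model over all 9 libraries with a coefficient per group, and two-sided tests adjusted by Benjamini and Hochberg over 12292 genes, with calls at an adjusted p under 0.05. The biological coefficient of variation was 0.519. Intervals are 95% intervals of that fit. The model was tested on simulated data. DESeq2 1.42.0 and limma-voom (limma 3.58.1) were alternatives, beside other scalings and filters, a fit with only the groups compared, a replicate block and fits without each library.

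The subunits and gene lists were chosen with earlier results of these data known. All 10 subunits are named, and from the lists of other subunits, adaptors, signalling and ligands each called gene, up to 6 a list, except 1 gene of the signalling list, which is not reported here and was left out of its counts. Cell type markers are given by counts and sums, and those named as called were chosen after their values were seen. Ratios used counts plus 0.5 and exact permutation tests. P-values measure the spread between pooled libraries. A count of 0 allows up to 3 counts, a limit for counting error only, since reads carried no molecular identifiers used here. Chi-square divided by its degrees of freedom was 21.9 to 51.1 between replicates, above the 1 that counting error gives. Coordinates are from GENCODE M21 on GRCm38, which need not be the annotation the authors used, and promoters from RefSeq on GRCm38.p6.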

Additional observations from a re-analysis of the deposited data

How the results depend on the processing

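The number of subunits called was 0 in each direction and comparison in the 17 alternatives, with these exceptions in NMO+Clodronate against Normal: with all genes that had a count, 1 subunit (Itgal, adjusted p = 0.0431) was called higher, and without single libraries the count ran from 0 to 1 (Itgal without Normal replicate 2, Itgb2 without NMO+Clodronate replicate 3). Of the 30 log2 fold changes of subunits, 19 kept their sign in all 17 alternatives and 11 changed it in at least 1. In NMO against Normal, library totals alone gave 0.0084 for Itgam and 0.026 for Itga9. DESeq2 size factors gave -0.017 for Itga6, leaving out Rn45s gave -0.00082 and the DESeq2 Wald test -0.017. For Itgal limma-voom gave 1.32 and the replicate block 0.42. In NMO+Clodronate against NMO, library totals alone gave -0.031 for Itgb1. Library totals alone moved the median of all genes in NMO against Normal to 0.097.

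Without single libraries, log2 fold changes in NMO against Normal ran from -0.25 to 0.016 for Itgam, from -0.83 to 2.15 for Itgal, from -0.13 to 0.33 for Itgav, from -0.059 to 0.059 for Itga6 and from -0.89 to 0.30 for Itga5. In NMO+Clodronate against NMO they ran from -0.33 to 0.14 for Itgav, from -0.23 to 0.060 for Itgb5 and from -0.11 to 0.10 for Itgb1, and in NMO+Clodronate against Normal from -0.14 to 0.22 for Itgav and from -0.32 to 1.02 for Itga4. The log2 ratios ran from -0.66 to 2.75 (Itgal to Itgb2) and from -1.51 to 0.21 (Itga5 to Itgb1) in NMO against Normal, from -0.15 to 0.41 (Itgav to Itgb5) and from -0.051 to 0.26 (Itga6 to Itgb1) in NMO+Clodronate against NMO, and from -0.67 to 2.35 (Itga4 to Itgb1) and from -0.15 to 0.049 (Itga6 to Itgb1) in NMO+Clodronate against Normal. Adaptors called in that comparison numbered 1 to 2 higher and 0 to 3 lower without single libraries, and ligands 0 to 1 higher and 0 to 2 lower. The cause was not tested.

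Same-numbered libraries of different groups correlated at -0.013 to 0.038 across genes after removal of group means, so the numbers were not read as pairs. With the replicate block 0 subunits were called in each comparison, and the adaptors called lower in NMO+Clodronate against NMO numbered 1 and those called higher in NMO+Clodronate against Normal 1, where they had been 0 and 2. Tln1 (adjusted p = 0.05004) and Cd82 (adjusted p = 0.0798) lost their calls against Normal with it. With 3 libraries a group, intervals of Itgal, Itga4 and Itga5 leave differences of several fold undetected, and the counts of 0 limit what their ratios can show.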
